A study of Mus musculus with 8 samples.

Results

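The 44 genes described here encode the contractile apparatus of striated muscle and the factors that switch it on, and all 44 were found among the 21631 protein-coding genes of the annotation. They were chosen because muscle genes were densely covered in these data, so their coverage by H3K27ac intervals is a description of the selected genes, with no test. H3K27ac, acetylation of lysine 27 of histone H3, marks active promoters and enhancers. It was mapped by chromatin immunoprecipitation and sequencing in CD8+ T cells of C57BL/6 mice, taken from lymph node and spleen and stimulated with antibodies to CD3 and CD28. The treatment lasted 48 h and was EnPGC-1 or DMSO, a common solvent for small molecules, and the labels class EnPGC-1 among PIPs, which are pyrrole-imidazole polyamides, synthetic molecules that bind the minor groove of DNA. The 8 samples formed 5 groups: 2 H3K27ac samples from cells given EnPGC-1, 2 H3K27ac samples from cells given DMSO, 1 input from cells given EnPGC-1, and 1 input and 2 IgG samples from cells given DMSO. Both treatments shared the strain, the organs, the stimulation and the time, and the labels do not say how many animals or cultures the samples came from.

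The values are 2 deposited lists of H3K27ac intervals on mm10, 1 per treatment, so there is no spread between replicates and no difference between treatments can be tested. Below, "with EnPGC-1" and "with DMSO" name the list of that treatment. The EnPGC-1 list held 253423 intervals over 165 Mb, and the DMSO list held 81522 intervals over 41.3 Mb. Read depth and the input and IgG signal are unknown here, and a difference in depth or enrichment between the lists and a difference in acetylation cannot be told apart. The cells were profiled in bulk, so many cells with little acetylation and few cells with much cannot be told apart either. Of all protein-coding genes, 84.1% had an EnPGC-1 interval and 62.6% a DMSO interval within 5 kb of a gene end. Of 14 markers of CD8 T cells, 13 (92.9%) had an EnPGC-1 interval there and 8 (57.1%) a DMSO interval, near those shares. Their median coverage was 12.1% with EnPGC-1 and 3.90% with DMSO, with Cd8a, a chain of the CD8 coreceptor, at 8.12% and 3.42%. The 14 markers spanned 0.265% to 48.3% with EnPGC-1 and 0 to 14.8% with DMSO. Highest were Zap70 at 48.3% and 10.6%, Cd5 at 35.0% and 11.4%, and Lat at 32.9% and 14.8%. Ptprc, which encodes the leukocyte antigen CD45, was at 0.265% with EnPGC-1 and 0 with DMSO, where Cd3d, Cd3g and Cd28 were also at 0. All 6 markers of smooth muscle, Des among them, had an EnPGC-1 interval and 5 a DMSO interval near a gene end, at 11.2% to 36.5% with EnPGC-1 and 0 to 16.7% with DMSO. Acta2, the smooth muscle alpha-actin, was the marker at 0. Their part in the values of the sarcomere genes was not tested.

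A sarcomere is built from thick filaments of myosin and thin filaments of actin that slide past each other. Calcium released from the sarcoplasmic reticulum binds the troponin complex on the thin filament, which lets the myosin heads pull. The Z-disc anchors the thin filaments, and the giant protein titin spans from the Z-disc to the middle of the thick filament. In development, the basic helix-loop-helix factors MyoD, myogenin, Myf5 and Myf6 bind E-boxes, short motifs with the letters CANNTG, together with MEF2 factors, and turn on these genes in muscle cells. The programme is known from muscle and is not counted among the features of T cells.

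Of the 44 genes, 36 had an entry in the RefSeq promoter table of GRCm38.p6, and the 250 bases upstream of the transcription start are printed for 6 of them. Myog and Myf5 are shown because they are the regulators with an entry. Tnnc2, Acta1 and Myl3 are shown because, with Myog, they had the highest scores among the 9 genes whose 300-base promoter window, which adds 50 bases downstream of the start, was covered whole by an EnPGC-1 interval and untouched by DMSO intervals. Mybpc2 is shown because both lists covered its window whole. The stretches lie at chr1:134289754-134290003 on the plus strand for Myog, chr10:107486135-107486384 on the minus strand for Myf5, chr2:164779735-164779984 on the minus strand for Tnnc2, chr8:123894776-123895025 on the minus strand for Acta1, chr9:110763428-110763677 on the plus strand for Myl3 and chr7:44524670-44524919 on the minus strand for Mybpc2. They are written 5′ to 3′ in the direction of transcription, and capitals mark E-boxes with the letters CANNTG.
Myog: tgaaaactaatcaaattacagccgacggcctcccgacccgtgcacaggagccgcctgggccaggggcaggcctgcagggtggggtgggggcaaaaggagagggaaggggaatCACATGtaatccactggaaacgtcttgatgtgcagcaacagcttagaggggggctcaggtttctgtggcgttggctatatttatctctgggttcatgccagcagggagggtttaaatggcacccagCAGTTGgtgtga
Myf5: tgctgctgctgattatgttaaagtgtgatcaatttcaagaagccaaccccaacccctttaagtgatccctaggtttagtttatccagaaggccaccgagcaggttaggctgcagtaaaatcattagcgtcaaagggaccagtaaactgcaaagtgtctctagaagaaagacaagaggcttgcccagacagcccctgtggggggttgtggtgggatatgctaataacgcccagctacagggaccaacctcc
Tnnc2: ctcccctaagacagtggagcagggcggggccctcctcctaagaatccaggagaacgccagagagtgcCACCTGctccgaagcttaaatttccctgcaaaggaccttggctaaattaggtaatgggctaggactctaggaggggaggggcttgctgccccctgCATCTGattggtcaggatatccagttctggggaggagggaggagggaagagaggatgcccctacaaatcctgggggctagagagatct
Acta1: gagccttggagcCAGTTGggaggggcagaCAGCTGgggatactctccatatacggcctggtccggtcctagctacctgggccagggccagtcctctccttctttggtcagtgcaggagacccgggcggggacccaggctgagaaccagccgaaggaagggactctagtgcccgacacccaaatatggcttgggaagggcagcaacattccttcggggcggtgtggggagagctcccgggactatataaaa
Myl3: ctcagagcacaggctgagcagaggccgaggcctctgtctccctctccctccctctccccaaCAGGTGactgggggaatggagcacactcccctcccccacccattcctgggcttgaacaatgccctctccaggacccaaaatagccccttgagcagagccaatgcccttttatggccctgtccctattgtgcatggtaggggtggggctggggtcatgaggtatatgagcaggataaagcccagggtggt
Mybpc2: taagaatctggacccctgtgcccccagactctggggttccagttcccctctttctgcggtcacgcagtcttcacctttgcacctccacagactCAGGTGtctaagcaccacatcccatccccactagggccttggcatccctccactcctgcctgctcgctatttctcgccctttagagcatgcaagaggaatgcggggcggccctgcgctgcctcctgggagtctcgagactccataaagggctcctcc

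The Myog promoter held the E-boxes CACATG and CAGTTG, and the Tnnc2 promoter held CACCTG and CATCTG. The Acta1 promoter held CAGTTG and CAGCTG, a form that MyoD binds, while Myl3 and Mybpc2 each held CAGGTG. The stretch shown for Myf5 held no E-box. The EnPGC-1 interval over the Tnnc2 promoter had a deposited score of 9.82, the highest of any interval at the 44 genes, against 6.67 over Acta1, 6.63 over Myog and 6.45 over Myl3. That score is read as −log10 of a q-value and ranks intervals within 1 list only. At Mybpc2 the EnPGC-1 interval scored 5.87 and the DMSO interval 4.00. At Myf5 the EnPGC-1 interval ended just upstream of the start and covered 52 of the 300 bases.

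Across the 36 promoter windows, 31 (86.1%) held an E-box with the letters CANNTG on either strand, against 68.8% of 17274 promoters of the same length. The form CAGCTG, whose promoters are part of that count, was in 15 muscle promoters (41.7%) and in 15.2% of all promoters. The MEF2 box was searched as CTA, 4 bases of A or T, TA, then A or G, on either strand. That exact form was in 6 muscle promoters (16.7%), those of Ttn, Mybpc3, Myoz2, Myh1, Myh4 and Myh8, and in 1.74% of all. The Myog stretch printed above holds ctatatttat, which departs from the form at its last base only and is not counted. The CArG box, the motif of serum response factor, was in the 4 promoters of Acta1, Actc1, Myl3 and Myh4 (11.1%), and in 1.57% of all. The letters TATAAA, searched on both strands and able to overlap an MEF2 box, were in 11 muscle promoters (30.6%) and in 13.4% of all. The muscle promoters held a median of 5.5 CpG sites, against 14 in all promoters, at a similar GC content of 57.0% against 56.3%. A match says only that these letters are in the window.

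An interval lay within 5 kb of either gene end for 42 of the 44 muscle genes (95.5%) with EnPGC-1 and for 35 (79.5%) with DMSO. Of all protein-coding genes, 84.1% were marked in this way with EnPGC-1 and 62.6% with DMSO. The ends of 7 muscle genes (15.9%) were marked with EnPGC-1 alone, against 22.8% of all genes. None of the 44 was marked with DMSO alone, which was rare in general, at 260 of all 21631 genes. The genes with their 5 kb on each side held 495 EnPGC-1 intervals and 172 DMSO intervals when each interval was counted once.

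The muscle genes had more of their length covered than genes in general, in both lists. Over the gene with 5 kb on each side, the median covered share was 27.3% with EnPGC-1 and 5.89% with DMSO, against 8.58% and 1.97% for all protein-coding genes. At least 2-fold more bases were covered with EnPGC-1 at 40 of the 44 genes (90.9%), against 75.8% of all genes. The exceptions were Myl1 and Myoz2, which had no interval in either list, Myh2 with a ratio of 1.98 and Tnni1 with 1.70. At none of the 44 was the DMSO coverage at least 2-fold higher, which was rare in general, at 249 of all 21631 genes. Where the DMSO list covered any base, the median ratio was 3.87 at 37 muscle genes and 3.47 at all genes. When the EnPGC-1 list was reduced to its 81522 highest-scoring intervals, to match the DMSO list in number, 19 muscle genes had a 2-fold excess, against 31.6% of all genes, and the median EnPGC-1 coverage was 12.2%, against 2.57% for all genes.

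**Figure D1:**
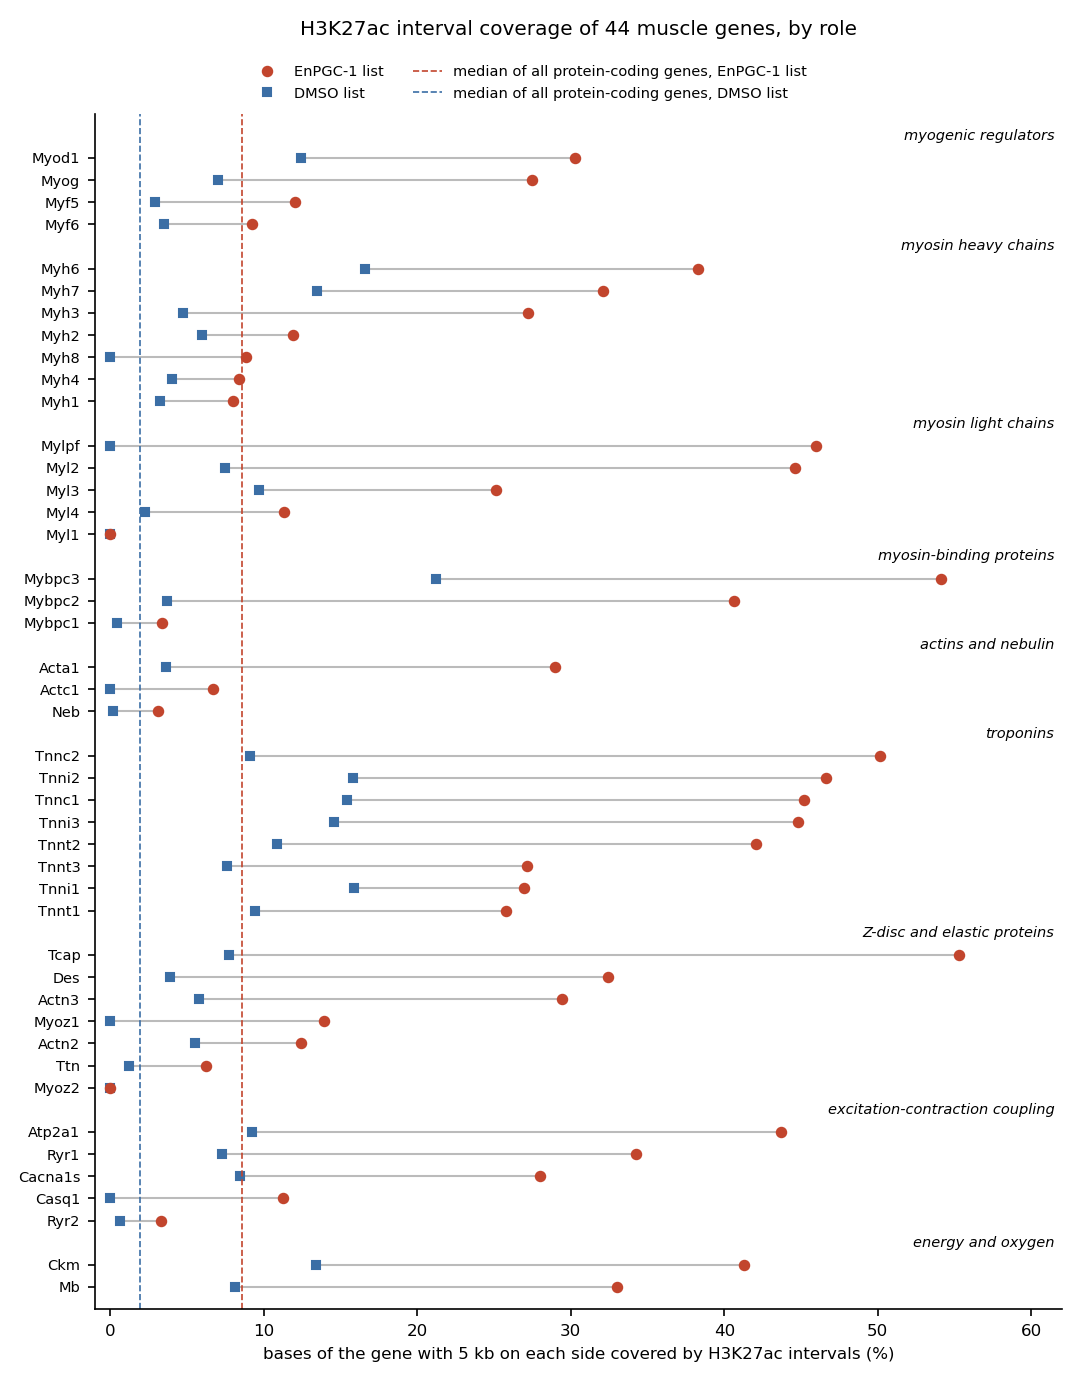
Covered share of each muscle gene with 5 kb on each side, in percent on the horizontal axis, for the EnPGC-1 list (circles) and the DMSO list (squares), grouped by role. Dashed lines give the medians of all protein-coding genes, 8.58% with EnPGC-1 and 1.97% with DMSO, and no gene has its circle left of its square.

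All 4 myogenic regulators were marked in both lists, as were 13277 of all 21631 protein-coding genes. Counts by role, here and below, are small and stand beside 84.1% of all genes with EnPGC-1 and 62.6% with DMSO. The regulators had a median coverage of 19.8% with EnPGC-1 and 5.26% with DMSO. Myod1 (chr7:46376474-46379092), which encodes MyoD, a factor able to turn fibroblasts into muscle cells, had 6 EnPGC-1 intervals over 3823 bases (30.3%) and 2 DMSO intervals over 1572 bases (12.5%). Its surroundings were covered to a like degree, with 31.7% of the 250 kb flanks with EnPGC-1 and 8.97% with DMSO. Within the gene body itself, 50.2% was covered with EnPGC-1 and 42.6% with DMSO.

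Myog (chr1:134290004-134292548), which encodes myogenin and acts when myoblasts fuse and differentiate, had 6 EnPGC-1 intervals (27.5% covered) and 2 DMSO intervals (6.99%). The EnPGC-1 interval chr1:134289515-134290730 spanned its start, while no DMSO interval touched the gene body. The EnPGC-1 and DMSO intervals at Myog met upstream of the gene, at chr1:134285481-134286011 with EnPGC-1 and chr1:134285492-134286001 with DMSO. Downstream of the gene, the EnPGC-1 interval chr1:134296829-134298797 also met a DMSO interval, which was not among the 2 counted at Myog.

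Myf5 and Myf6, which act early and late in the muscle lineage, are neighbours on chromosome 10, and a gap of 5920 bases separates them, so part of their 5 kb windows is shared. Myf5 had 2 EnPGC-1 intervals (12.1% covered) and 1 DMSO interval (2.89%). Myf6 had 1 EnPGC-1 interval, chr10:107493471-107494567 (9.24%), and 1 DMSO interval within it, chr10:107493595-107494013 (3.53%). The DMSO interval at Myf6 had a score of 6.50, the highest of the DMSO intervals at the 44 genes. The flanks of both were nearly bare, with under 1% covered in either list: 0.860% with EnPGC-1 and 0.381% with DMSO at Myf5, and 0.981% and 0.379% at Myf6. Thus the coverage of these 2 genes stood above that of their surroundings in both lists, and that of Myod1 did so with DMSO alone.

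The 7 myosin heavy chain genes, whose products form the motor of the thick filament, all had an EnPGC-1 interval near a gene end, and 6 of them had a DMSO interval. Their median coverage was 11.9% with EnPGC-1 and 4.75% with DMSO. The cardiac genes Myh6 and Myh7 lie 2666 bases apart on chromosome 14. Myh6 (alpha heavy chain) had 18 EnPGC-1 intervals (38.3% covered) and 10 DMSO intervals (16.6%), and Myh7 (beta heavy chain) had 16 (32.1%) and 7 (13.4%). Both stood above their 250 kb flanks, which were covered to 17.3% with EnPGC-1 and 3.72% with DMSO around Myh6.

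The 5 skeletal heavy chain genes lie in a row on chromosome 11 and are used at different ages and in different fibre types. Myh3, the embryonic form, had 12 EnPGC-1 intervals (27.2% covered) and 4 DMSO intervals (4.75%), while its 250 kb flanks were covered to 7.17% and 1.94%. Next along the chromosome, Myh2, the form of fast oxidative fibres, was covered to 11.9% with EnPGC-1 and 6.01% with DMSO. Myh1 was at 7.99% and 3.27%, and Myh4, the form of the fastest fibres, at 8.38% and 4.01%. Myh8, the perinatal form, had 8 EnPGC-1 intervals (8.87%) and no DMSO interval. Apart from Myh3 and Myh2, these genes were covered about as much as their own flanks with EnPGC-1, which lay between 8.38% and 9.23%.

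**Figure D2:**
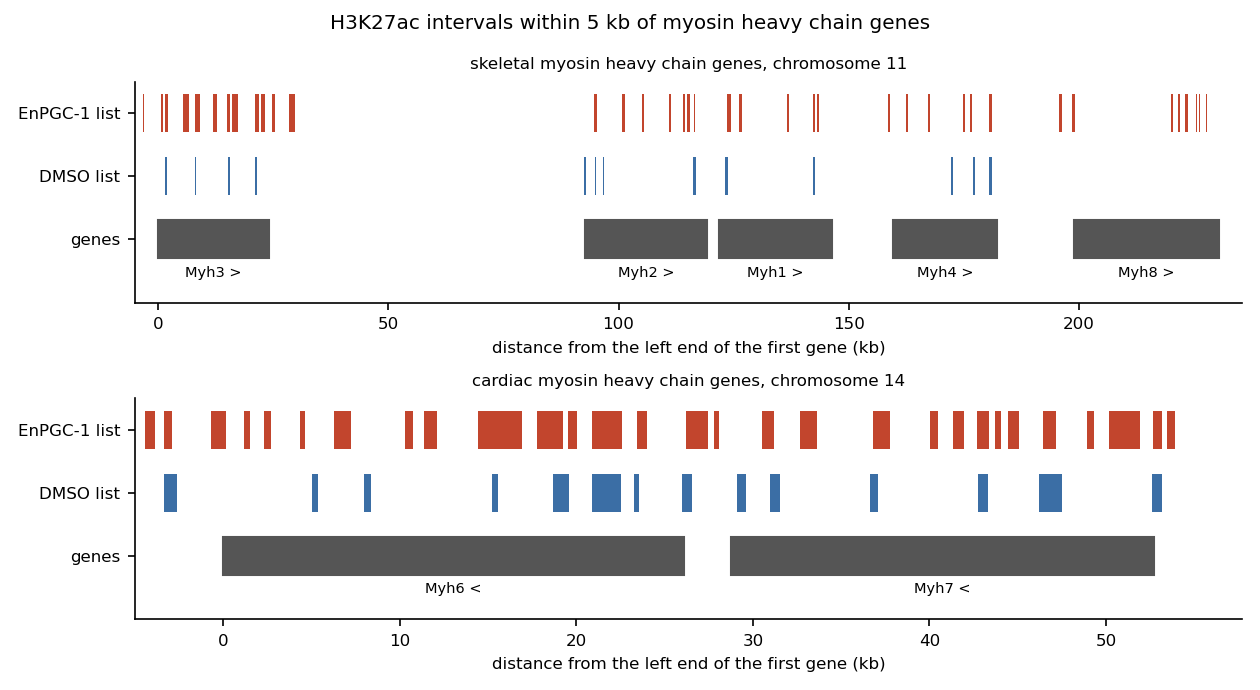
H3K27ac intervals within 5 kb of the myosin heavy chain genes, as distance in kb from the left end of the first gene, for the skeletal genes (upper panel) and the cardiac genes (lower panel), with EnPGC-1 intervals above DMSO intervals and genes as grey bars whose arrows give the direction of transcription. Myh3 holds 12 EnPGC-1 intervals and 4 DMSO intervals, and no DMSO interval lies at Myh8.

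Among the 5 myosin light chain genes, 4 were marked with EnPGC-1 and 3 with DMSO. Mylpf (chr7:127208848-127214288), the regulatory light chain of fast fibres, had 7 EnPGC-1 intervals over 7095 bases (45.9%) and no DMSO interval. Its flanks were covered to 20.0% with EnPGC-1 and 5.29% with DMSO. Myl2, the regulatory light chain of heart ventricle and slow fibres, had 15 EnPGC-1 intervals (44.6%) and 6 DMSO intervals (7.50%). Myl1 (chr1:66924295-66947932), the essential light chain of fast fibres, had no interval in either list within 5 kb. Myl3, the essential light chain of slow fibres and ventricle, was covered to 25.1% with EnPGC-1 and 9.67% with DMSO, and Myl4, that of atria and embryonic muscle, to 11.3% and 2.25%.

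All 3 genes of myosin-binding protein C, which tethers and regulates the thick filament, had EnPGC-1 intervals near a gene end, and 2 had DMSO intervals there. The cardiac gene Mybpc3 (chr2:91118114-91136516) had 10 EnPGC-1 intervals over 15380 bases (54.1%) and 10 DMSO intervals over 6036 bases (21.3%), the highest DMSO coverage of the 44 genes. Its EnPGC-1 intervals were wide: the longest of them, chr2:91134455-91137815, spanned 3361 bases with 6 summits, and 9 of the 10 DMSO intervals shared bases with EnPGC-1 ones. The fast gene Mybpc2 had 19 EnPGC-1 intervals (40.6%) and 3 DMSO intervals (3.72%), a ratio of 10.9. The slow gene Mybpc1 had 8 EnPGC-1 intervals (3.38%) and 1 DMSO interval (0.440%) over a body of 86951 bases, less than its flanks at 5.53% and 1.68%.

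Of the thin filament, Acta1 (chr8:123891758-123894775), the skeletal alpha-actin, had 4 EnPGC-1 intervals over 3769 bases (29.0%) and 2 DMSO intervals over 475 bases (3.65%). Actc1, the cardiac alpha-actin, had 2 EnPGC-1 intervals (6.71%) and none with DMSO. Neb, which encodes nebulin, the ruler of thin filament length, had 13 EnPGC-1 intervals (3.13%) and 1 DMSO interval (0.181%) over 202159 bases. The ratio at Neb, 17.3, was the highest of the 44 genes and rests on 384 bases of 1 DMSO interval.

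All 8 troponin genes, which make up the calcium switch of the thin filament, were marked in both lists, as were 13277 of all 21631 genes. The troponin genes had a median coverage of 43.4% with EnPGC-1 and 12.7% with DMSO. Each stood above its own flanks and above the median of genes of like local density in both lists. Tnnc2 (chr2:164777161-164779734), the calcium-binding subunit of fast fibres, had 6 EnPGC-1 intervals over 6304 bases (50.1%) and 3 DMSO intervals over 1149 bases (9.14%). Tnnt2, the cardiac subunit that binds tropomyosin, had 12 EnPGC-1 intervals (42.1%) and 5 DMSO intervals (10.9%). The narrowest difference was at Tnni1, the inhibitory subunit of slow fibres, with 11 EnPGC-1 intervals (26.9%) and 11 DMSO intervals (15.9%). The other 5 troponin genes, Tnnc1, Tnni2, Tnni3, Tnnt1 and Tnnt3, lay between 25.8% and 46.6% with EnPGC-1 and between 7.60% and 15.8% with DMSO. In 3 places 2 troponin genes lie within 100 kb of each other, Tnni1 with Tnnt2, Tnni2 with Tnnt3 and Tnni3 with Tnnt1. Only 2329 bases separate the last 2, so the 8 genes are fewer than 8 independent places.

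Of the 7 genes of the Z-disc and the elastic proteins, 6 were marked with EnPGC-1 and 5 with DMSO. Tcap (chr11:98383811-98384953), which encodes telethonin, a cap on titin at the Z-disc, had 4 EnPGC-1 intervals over 6161 bases (55.3%), the highest EnPGC-1 coverage of the 44 genes, and 2 DMSO intervals over 861 bases (7.73%). Its body of 1143 bases was covered to 93.3% with EnPGC-1 and untouched with DMSO. Des, which encodes desmin, the intermediate filament that links Z-discs, had 6 EnPGC-1 intervals (32.4%) and 1 DMSO interval (3.87%), again with 53.1% of the body covered with EnPGC-1 and none with DMSO. Myoz2, a calsarcin of heart and slow fibres that binds calcineurin, had no interval in either list. Its relative Myoz1, of fast fibres, had 4 EnPGC-1 intervals (13.9%) and no DMSO interval. Ttn, which encodes titin, had 34 EnPGC-1 intervals (6.21%) and 8 DMSO intervals (1.23%) over its 278578 bases. The alpha-actinins, which crosslink actin at the Z-disc, were at 12.4% with EnPGC-1 and 5.51% with DMSO for Actn2 and at 29.4% and 5.78% for Actn3, the form of fast fibres.

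The 5 genes of excitation-contraction coupling were all marked with EnPGC-1, and 4 of them with DMSO. Atp2a1, the calcium pump of fast fibres, had 13 EnPGC-1 intervals (43.7%) and 4 DMSO intervals (9.22%). Ryr1 (chr7:29003340-29125179), the calcium release channel of skeletal muscle, had 61 EnPGC-1 intervals over 45184 bases (34.3%) and 19 DMSO intervals over 9600 bases (7.28%), the most bases of the 44 genes in each list. Its cardiac relative Ryr2, over 553847 bases with only 2 other genes within 250 kb, had 34 EnPGC-1 intervals (3.30%) and 8 DMSO intervals (0.657%). Casq1, the calcium store protein of fast fibres, had 5 EnPGC-1 intervals (11.2%) and no DMSO interval. Cacna1s, the calcium channel that senses voltage in skeletal muscle, had 32 EnPGC-1 intervals (28.0%) and 11 DMSO intervals (8.44%). Ckm, the creatine kinase that rebuilds ATP beside the myofibril, was covered to 41.3% with EnPGC-1 and 13.4% with DMSO. Mb, which encodes myoglobin, the oxygen store of muscle, was at 33.0% and 8.16%.

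By fibre type, in a grouping chosen after the values were seen, 13 genes of fast skeletal fibres had a median coverage of 27.1% with EnPGC-1 and 4.01% with DMSO. The 15 genes of slow fibres or heart had 26.9% with EnPGC-1 and 9.67% with DMSO. Both sets held genes at 0 with DMSO, 4 in the fast set (Mylpf, Casq1, Myoz1 and Myl1) and 2 in the slow and cardiac set (Myoz2 and Actc1). With Myh8, of perinatal muscle, these made up the 7 muscle genes at 0 with DMSO. Of all 21631 protein-coding genes, 6511 were at 0 with DMSO, so such zeros are not particular to muscle genes or to fast fibres.

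Local gene density went with coverage across the genome. Genes with 0 to 3 other protein-coding genes within 250 kb had a median coverage of 3.17% with EnPGC-1 and 0.593% with DMSO, and genes with 25 to 75 such neighbours had 25.3% and 5.86%. The muscle genes had a median of 11 neighbours, against 9 for all genes, and 17 of them (38.6%) had no other gene within 5 kb, against 50.3% of all genes. For each muscle gene the median was taken over all genes in its band of gene density, 1 of 10, and those medians had a median of 12.1% with EnPGC-1 and 2.74% with DMSO, against 27.3% and 5.89% measured at the muscle genes. The median of their band was exceeded by 38 of 44 muscle genes with EnPGC-1 and by 31 with DMSO, against 50% of all genes with EnPGC-1 and 50% with DMSO. In the EnPGC-1 list, 21 lay above the upper quartile of their band.

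Just above the median of their band with EnPGC-1 were Myoz1, at 13.91% against a band median of 13.87%, and Ryr2, at 3.30% against 3.17%. Just below were Ttn, at 6.21% against 6.60%, and Neb, at 3.13% against 5.69%. The other 4 genes below it were Casq1, Mybpc1, Myl1 and Myoz2. Farthest above it were Tcap and Mybpc3, by 39.4 and 38.2 percentage points. Among the 17 muscle genes with no other gene within 5 kb, the median coverage was 8.87% with EnPGC-1 and 2.89% with DMSO, against 4.46% and 0.725% for all such genes, and 12 exceeded the band median with EnPGC-1 and 9 with DMSO, against 40.5% and 40.7% of all such genes.

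**Figure D3:**
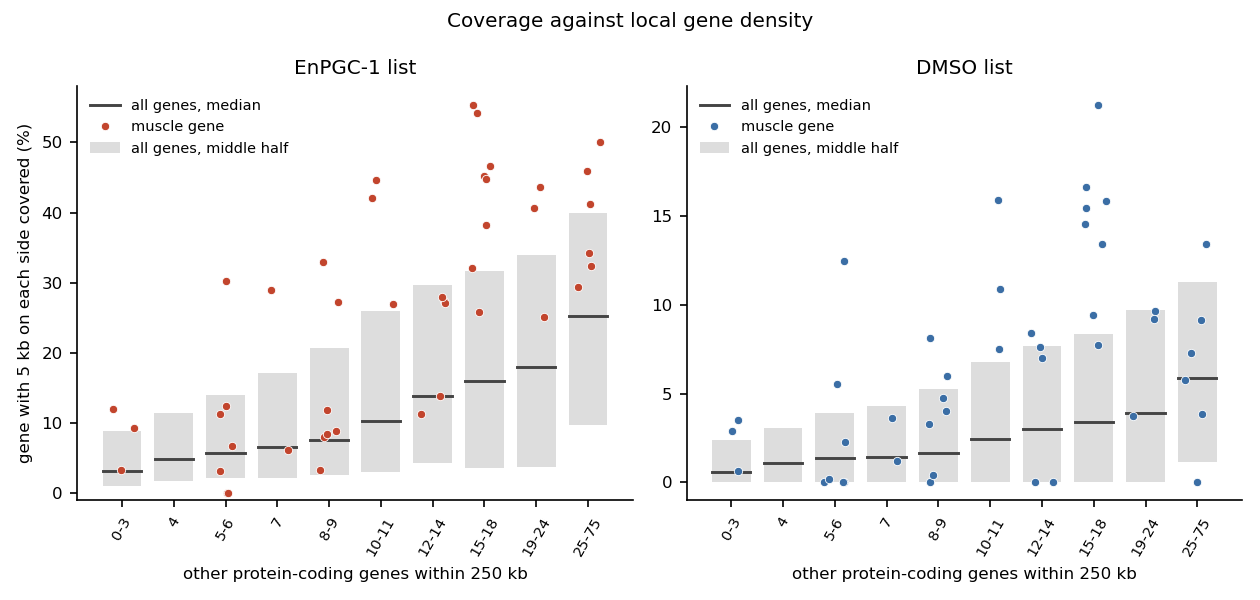
Covered share of the gene with 5 kb on each side, in percent, in 10 bands of other protein-coding genes within 250 kb, for the EnPGC-1 list (left) and the DMSO list (right), with a different vertical scale in each panel. Points are the 44 muscle genes, spread sideways for legibility, grey boxes run from the lower to the upper quartile of all genes and black lines give their medians, which 38 muscle genes exceed with EnPGC-1 and 31 with DMSO.

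The regions around the muscle genes were themselves more covered. The median coverage of the 250 kb on each side was 15.5% with EnPGC-1 and 3.77% with DMSO, against 8.49% and 2.06% for all genes. Even so, 35 muscle genes (79.5%) were covered more than their own flanks with EnPGC-1 and 28 (63.6%) with DMSO, against 52.1% and 45.9% of all genes. When genes were put in bands by the coverage of their flanks instead of by gene density, 29 of 44 exceeded the band median with EnPGC-1 and 28 with DMSO. Of all genes, 49.5% exceeded it with EnPGC-1 and 46.6% with DMSO. In the plot of genes against their flanks, Mybpc3 and Tcap stood farthest above theirs with EnPGC-1, by 42.2 and 36.4 percentage points, and Mybpc3 and Myh6 with DMSO, by 17.1 and 12.9.

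**Figure D4:**
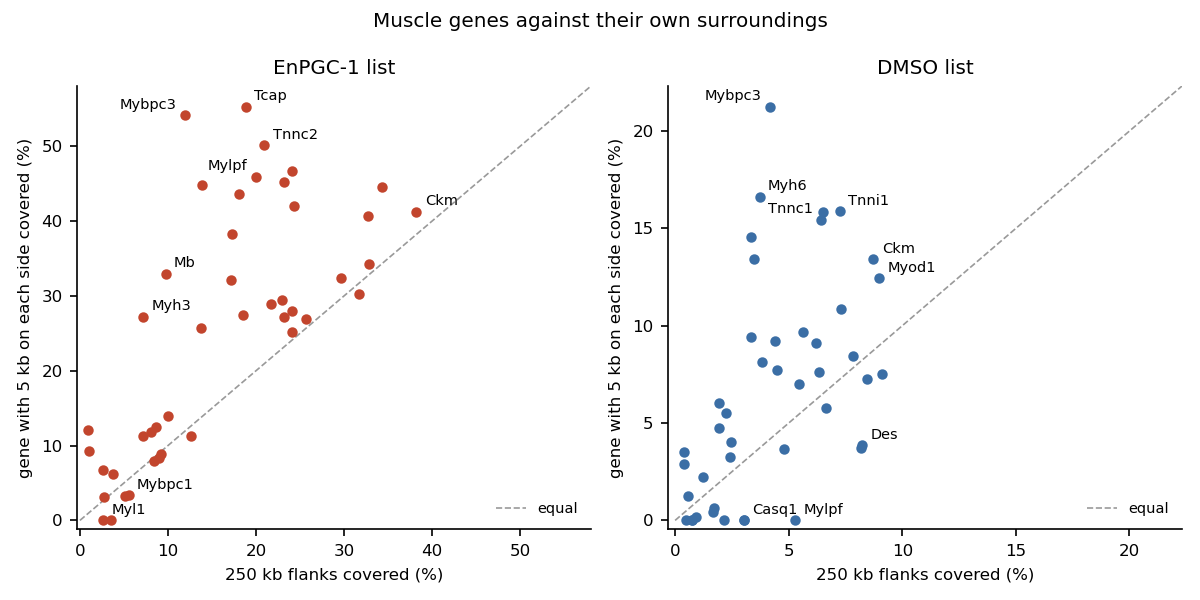
Covered share of each muscle gene with 5 kb on each side (vertical axis, percent) against that of the 250 kb on each side of it (horizontal axis, percent) for the EnPGC-1 list (left) and the DMSO list (right), with axes that differ between the panels. Each point is 1 gene, and 35 points lie above the dashed line of equal coverage with EnPGC-1 and 28 with DMSO.

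Position was uneven: 10 of the 44 genes (22.7%) lie on chromosome 7, which holds 9.38% of all genes. These 10, among them Myod1, Ryr1, Ckm and 4 troponin genes, had a median coverage of 41.0% with EnPGC-1 and 9.32% with DMSO, against 10.8% and 2.60% for all genes of that chromosome. In all, 15 of the 44 genes fall in 6 groups of neighbours within 100 kb, so the 44 genes stand for 35 separate places. With 1 gene kept per place, the median coverage was 28.0% with EnPGC-1 and 5.78% with DMSO.

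The scores of the intervals at the muscle genes lay near the middle of their lists. Their median was 3.69 with EnPGC-1 and 2.16 with DMSO, against 3.64 and 2.16 over each whole list, and 268 of 495 (54.1%) and 84 of 172 (48.8%) lay above the median of their list. The intervals were somewhat wider, with a median of 582 bases with EnPGC-1 and 473.5 with DMSO, against 499 and 431 over the whole lists. Several summits had been called within 142 EnPGC-1 intervals (28.7%) and 6 DMSO intervals (3.49%), for which no share over the whole lists is given. Scores above 10 belonged to 888 intervals of the EnPGC-1 list (0.350%) and 109 of the DMSO list (0.134%), and none of these lay at the muscle genes.

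Overlap of the 2 lists at the muscle genes was counted from 1 shared base. By this count, 138 of 495 EnPGC-1 intervals met a DMSO interval (27.9%, exact Clopper-Pearson 95% interval 24.0% to 32.1%), against 23.1% of the whole EnPGC-1 list. Of 172 DMSO intervals, 134 met an EnPGC-1 interval (77.9%, 71.0% to 83.9%), against 73.7% of the whole DMSO list. These confidence intervals cover counting error only and treat each interval as independent, though many lie at the same gene, 61 EnPGC-1 intervals at Ryr1 alone. The genes were also chosen for dense coverage, so the comparison with the whole lists is no test.

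Around the transcription start, known for 36 of the genes, EnPGC-1 intervals covered the start base of 21 muscle genes (58.3%) and DMSO intervals that of 5 (13.9%), against 38.2% and 13.5% of 17274 genes. The 5 were Myh2, Myh7, Mybpc2, Tnni1 and Atp2a1, and at Myh2 the start was covered with DMSO alone. Coverage was highest in the 250 bases just upstream of the start, at 49.7% of muscle genes with EnPGC-1 and 17.7% with DMSO. For all genes the highest bin lay just downstream, at 41.8% and 14.6%. Other bins of the muscle genes were nearly as high. With EnPGC-1 the bin just downstream of the start was at 48.2%. With DMSO the bin centred 2125 bases downstream was at 17.2%. The place of the highest bin is therefore not firm with 36 genes.

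In the first 1 kb downstream of the start, coverage of the muscle genes averaged 39.6% with EnPGC-1 and 9.51% with DMSO, against 33.1% and 10.6% for all genes. With DMSO the muscle genes were thus slightly below genes in general there. In the 1 kb upstream of the start they were above, where their coverage averaged 33.2% with EnPGC-1 and 9.51% with DMSO, against 20.0% and 6.42%. From 5 to 10 kb downstream, coverage of the muscle genes averaged 25.4% with EnPGC-1 and 5.36% with DMSO, against 13.8% and 3.64% for all genes. From 10 to 5 kb upstream it averaged 20.0% and 4.54%, against 11.1% and 2.73%. Coverage of whole promoter windows is given for the muscle genes alone, with no share over all promoters beside it. Of the 36 promoter windows of 300 bases, 13 were covered whole with EnPGC-1 and 3 with DMSO, while 14 and 28 were untouched. The windows of Mybpc3 and Tnnt2, which were covered to 54.1% and 42.1% over the gene with 5 kb on each side with EnPGC-1, were among those untouched by either list (named after the values were seen).

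**Figure D5:**
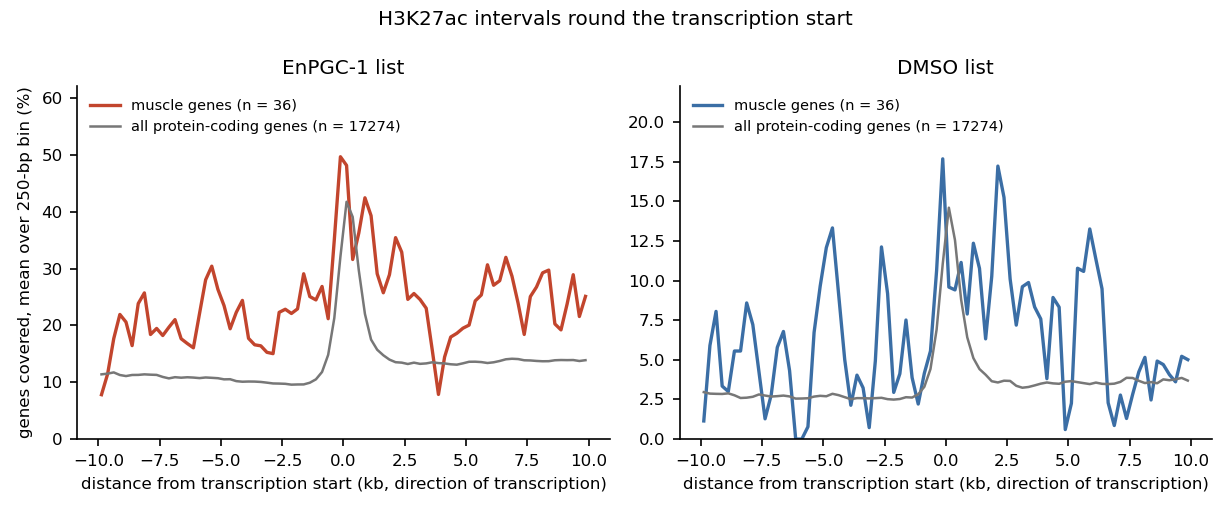
Share of genes covered at each distance from the transcription start, in percent over bins of 250 bases from 10 kb upstream to 10 kb downstream, for the EnPGC-1 list (left) and the DMSO list (right), with different vertical scales. Coloured lines are the 36 muscle genes with a known start and grey lines 17274 protein-coding genes; the coloured line peaks at 49.7% with EnPGC-1 and 17.7% with DMSO, just upstream of the start.

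With equal numbers of intervals in the 2 lists, 35 muscle genes (79.5%) had more bases covered with EnPGC-1, 7 (15.9%) had more with DMSO and 2 had none in either, against 55.0% and 24.6% of all genes. The 7 were Myod1, at 12.2% with EnPGC-1 and 12.5% with DMSO, Myf6, Myh6, Myh7, Tnnt3, Actn2 and Ttn. Myf6 kept no EnPGC-1 interval on this comparison, since its EnPGC-1 interval had a score of 3.69 and the lowest score kept was 4.21. Mylpf kept 33.2% with EnPGC-1 against 0 with DMSO, and Mybpc3 kept 46.9% against 21.3%.

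A further 95 genes of muscle, not among the 44, had a median coverage of 19.5% with EnPGC-1 and 4.35% with DMSO. Of these, 89 (93.7%) had an EnPGC-1 interval near a gene end and 71 (74.7%) a DMSO interval, against 84.1% and 62.6% of all genes. A 2-fold excess with EnPGC-1 was seen at 86 (90.5%), against 75.8% of all genes. The median of their band of gene density was exceeded by 65 (68.4%) with EnPGC-1 and by 63 (66.3%) with DMSO, against 50% of all genes in either list. By role, the median was 30.6% with EnPGC-1 and 6.99% with DMSO for 11 genes of energy supply, and 23.9% and 8.88% for 8 smooth muscle genes. It was 19.5% and 3.29% for 19 transcription factors and signals of the muscle lineage, 19.2% and 3.39% for 23 genes of calcium handling and the membrane, and 16.4% and 4.09% for 34 genes of the Z-disc, M-band and filaments.

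Single genes of that wider list, named here after their values were seen, spanned the whole range. Xirp1, which encodes an actin-binding protein of the intercalated disc and the myotendinous junction, was covered to 57.5% with EnPGC-1 and 16.9% with DMSO. Pax7, the factor of muscle stem cells, was at 39.7% and 9.26%, and Mef2d, 1 of the MEF2 factors, at 46.5% and 10.9%. Mef2c, another, was at 0.708% with EnPGC-1 and 0 with DMSO. Pln and Sln, which encode the small inhibitors of the calcium pump phospholamban and sarcolipin, had no interval in either list.

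Other tissue-specific families gave different values. The 94 potassium channel genes, which shape the excitability of nerve and muscle, had a median coverage of 16.1% with EnPGC-1 and 4.02% with DMSO. The 109 genes of keratins and keratin-associated proteins, which build skin and hair, had 9.72% and 0.00%. The median of the muscle genes, 27.3% with EnPGC-1 and 5.89% with DMSO, was above that of both families, a difference without a test, since each gene has 1 value per list and no replicate. On other measures the potassium channel genes were level with the muscle genes or above them. An EnPGC-1 interval lay near a gene end of 95.5% of the muscle genes and 96.8% of the potassium channel genes, a 2-fold excess with EnPGC-1 was seen at 90.9% and 91.5%, and the median ratio was 3.87 and 3.98. The median of their band of gene density was exceeded with EnPGC-1 by 86.4% of the muscle genes and 74.5% of the potassium channel genes, and with DMSO by 70.5% and 67.0%, while the upper quartile with DMSO was exceeded by 40.9% and 45.7%. The median percentile within the band with EnPGC-1 was 72.1 for the muscle genes and 72.2 for the potassium channel genes.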

How the data were processed

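H3K27ac ChIP, IgG and input samples were grouped by the antibody and treatment in the labels. The submitters' processing notes name Trimmomatic 0.38, Bowtie 1.1.2, Picard 0.118, MACS2 2.2.2.20160309, ChIPseeker 11.16.1 and mm10; their roles and parameters, the control for peak calling and any pooling of replicates are, in the sources used here, not given. The authors deposited 1 headerless list per treatment with chromosome, start, end, name and a score, read as −log10 of a q-value because the lowest value was 1.31 in both lists and −log10 of 0.05 is 1.30. Read depth is unknown, so the precision of no interval can be given, and a deeper or more enriched library can give more and wider intervals.

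Entries that repeat an interval (329623 EnPGC-1 and 84538 DMSO entries) were joined, keeping the highest score. Genes, promoters and sequences came from RefSeq tables of GRCm38.p6, whose coordinates are those of mm10. Coordinates are 1-based. Chromosomes 1 to 19 and X were used. Covered bases were counted over the gene with 5 kb on each side, over the gene body and over the 250 kb flanks. Local density is the number of other protein-coding genes within 250 kb, cut into 10 bands, which hold 1379 to 3221 genes because ties stayed together. The promoter table gave strand and start for 36 of the 44 genes and 17274 genes in all. Counting was checked on simulated intervals. Python 3.11.15, numpy 2.4.6, pandas 2.3.3, scipy 1.17.1 and matplotlib 3.10.9 were used.

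The 44 genes, the other gene lists and the markers were chosen with earlier results of these data known. Each value is a description, with no test, because there is 1 list per treatment and coverage chose the genes. The genes named are the 4 regulators, the 2 largest and the 1 smallest difference in covered percent (EnPGC-1 minus DMSO) of each role group, each gene at 0 in a list or with fewer bases in EnPGC-1, and the 2 on either side of the band median. Other genes were named after their values were seen. Alternatives were score, number and width filters, other windows, the gene body, other density measures, genes without close neighbours and, added after seeing the data, density per Mb, bands by flank coverage and 1 gene per place.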

Additional observations from a re-analysis of the deposited data

How the results depend on the processing

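With the 27 muscle genes that have another gene within 5 kb left out, 17 remained: 15 had an EnPGC-1 interval near a gene end (75.3% of all such genes) and 11 a DMSO interval (49.9%), 14 had a 2-fold excess with EnPGC-1 (68.6%), the median coverage was 8.87% with EnPGC-1 and 2.89% with DMSO, and 12 and 9 exceeded the band median (40.5% and 40.7%). With equal numbers of intervals, 19 had a 2-fold excess and the median EnPGC-1 coverage was 12.2%. Over the gene body alone the median EnPGC-1 coverage was 33.3%. With scores at or above the list's median, the median coverage was 17.7% with EnPGC-1 and 3.08% with DMSO, and the median DMSO coverage was 3.48% with intervals of at least 500 bases. A window of 1 kb gave 21 genes with a DMSO interval, against 41.6% of all genes. Of these shifts, the lower counts with fewer genes and the lower values with fewer intervals or a narrower window follow from that construction. The medians at the 17 genes were lower as well. For all genes without close neighbours the median coverage was lower too, at 4.46% with EnPGC-1 and 0.725% with DMSO, against 8.58% and 1.97% for all genes. The cause of the lower medians and of the other shifts was not tested. Of 58 values, 45, the 17.7% among them, moved by at most 1.5 times for a count or, for a median, stayed within its 95% order-statistic interval over the muscle genes, which are not replicates.

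The number above the band median ran from 29 to 39 of 44 with EnPGC-1 and from 28 to 33 of 44 with DMSO where every gene was kept. With 1 gene per place, an alternative added after seeing the data like density per Mb and bands by flank coverage, 29 and 23 of 35 exceeded it. No paired analysis was possible because each treatment has 1 list and the replicate numbers of the labels are not in the files, and for the same reason no replicate could be left out. Coverage depends on how many intervals were called, and the depth, the control signal and the spread between replicates are unknown.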

Other observations

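Marker genes of other cell types spanned a wide range. Smooth muscle markers (6 genes, Des among them) had a median coverage of 30.8% with EnPGC-1 and 8.07% with DMSO. B cell markers (6 genes) had a median coverage of 28.3% with EnPGC-1 and 5.47% with DMSO. Liver markers (6 genes) were at 11.1% and 0.873%, neuron markers (6 genes) at 10.8% and 1.81%, and erythroid markers (5 genes) at 8.02% and 2.57%. Myeloid markers (6 genes) had 7.40% with EnPGC-1 and 0.108% with DMSO, testis markers (6 genes) 7.04% and 0.245%, and fibroblast markers (5 genes) 6.12% and 1.90%. The median of the 44 muscle genes, 27.3% with EnPGC-1 and 5.89% with DMSO, lay below that of the smooth muscle markers in both lists, near that of the B cell markers, and above those of the other cell types named here. Among T cell genes, Zap70, a kinase of T cell receptor signalling named after its value was seen, was covered to 48.3% with EnPGC-1 and 10.6% with DMSO, beside 50.1% and 9.14% at Tnnc2.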
